A study of Mus musculus with 6 samples.

Results

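Clustered histone genes were examined in the testis of Prss55-/- and wt mice, taken as every non-control probe whose gene name on the array starts with Hist1h, Hist2h or Hist3h, with Hist1h1t left out. This gave 42 of 41174 probes and 36 of 27376 gene names, with 30 probes on chromosome 13, 7 on chromosome 3 and 4 on chromosome 11 in the mm9 positions of the array files, and 1 (Hist1h2bp) without a position. 2 of the genes encode testis variants, Hist1h2aa (TH2A) and Hist1h2ba (TH2B), and the other 34 genes, measured by 40 probes, are replication-type genes or relatives of them. Total RNA came from whole testis of male mice aged 6 to 8 weeks on a mixed 129Sv/C57BL/6 background, 3 homozygous for a Prss55 allele disrupted by homologous recombination and 3 wt, with 1 single-dye array per mouse. Prss55 encodes a serine protease found in testis. The question was where these histone probes rank by signal, how the testis variants compare with the replication-type genes, and whether either differs between the genotypes.

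Chromatin is built on nucleosomes, each made of the core histones H2A, H2B, H3 and H4, with linker histone H1 bound at the outside. The replication-type genes are clustered, have no introns and are transcribed mainly in S phase, when new chromatin is made. Most of their mRNAs end in a stem-loop instead of a poly(A) tail, and the labelling kit used here primes from poly(A), so that signal from these genes does not measure all of their mRNA. In the testis, TH2A and TH2B are made in spermatocytes and take the place of much of the ordinary H2A and H2B, until histones are largely exchanged for transition proteins and protamines in spermatids.

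Core histone genes of 1 type are nearly the same in much of their coding sequence, which decides what an array probe can measure. The probe for Hist1h2aa and the second probe for Hist1h2af, a replication-type H2A gene, both start at base 328 of their transcripts and share a run of 44 bases, shown in capitals, with 47 of 60 bases identical.
Hist1h2aa: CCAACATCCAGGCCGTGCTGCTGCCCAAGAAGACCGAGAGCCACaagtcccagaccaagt
Hist1h2af: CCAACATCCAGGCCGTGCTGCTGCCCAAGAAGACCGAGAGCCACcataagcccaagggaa
The Hist1h2aa probe lies at chr13:24026659-24026718 on the plus strand and the Hist1h2af probe at chr13:23626108-23626167 on the plus strand (mm9). TH2A mRNA and mRNA of replication-type H2A genes cannot be told apart with certainty at these probes.

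The Hist1h2ba probe (chr13:24025811-24025870, minus strand, mm9) is closest to the 2 probes for Hist1h2bk, a replication-type H2B gene, which cover 54 of its 60 bases between them. It differed from Hist1h2bk at 5 of these 54 bases, shown in capitals. Its longest unbroken run shared with a histone probe of another gene was 14 bases. This run stops where the first Hist1h2bk probe ends, and 6 bases of the Hist1h2ba probe are covered by neither Hist1h2bk probe. Whether the run goes on in Hist1h2bk mRNA was not tested, and below the Hist1h2ba probe is counted as not known to be shared. The probe for Hist1h2bm differed from the second Hist1h2bk probe at 2 of 60 bases, also in capitals.
Hist1h2ba: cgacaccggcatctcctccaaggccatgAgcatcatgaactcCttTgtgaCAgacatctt
Hist1h2bk, first probe: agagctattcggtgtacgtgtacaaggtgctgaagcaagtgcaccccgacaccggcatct
Hist1h2bk, second probe: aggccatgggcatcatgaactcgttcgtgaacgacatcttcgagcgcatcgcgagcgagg
Hist1h2bm: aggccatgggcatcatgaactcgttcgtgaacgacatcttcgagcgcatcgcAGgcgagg
These sequences are printed because the differences between genotypes described below were read from them. Hybridization of each probe to the mRNA of the other genes was not tested.

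The 2 testis variant genes lie head to head on chromosome 13, with 280 bases between their starts in GRCm38.p6 (RefSeq). Their promoter windows, each reaching 250 bases before and 50 after the start, share 220 bases, chr13:23934187-23934406, shown on the plus strand with motif matches in capitals.
Shared promoter: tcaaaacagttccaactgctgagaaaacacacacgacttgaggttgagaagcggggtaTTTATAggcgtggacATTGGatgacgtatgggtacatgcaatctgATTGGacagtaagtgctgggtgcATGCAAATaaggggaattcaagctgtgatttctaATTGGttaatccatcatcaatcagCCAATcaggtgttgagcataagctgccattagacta
It held 1 match to TATAAA, 4 to CCAAT and 1 to the octamer ATTTGCAT, each searched on both strands and none overlapping another. RefSeq gave a window for 30 of the 36 genes (31 windows, of which 2 pairs overlap). CCAAT was present in 29 of these 31 windows (93.5%), against 37.4% of all 32851 promoter windows of the same length. TATAAA was present in 20 (64.5%, against 13.6%) and the octamer in 11 (35.5%, against 1.74%). The octamer, known as a binding sequence of POU factors and as an element of H2B promoters, was found in 6 of 11 H2A windows and 5 of 9 H2B windows, and in 0 of the 5 H1, 2 H3 and 4 H4 windows.

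By signal, most clustered histone probes were among the brighter probes of the array in wt testis, and the spread among them was wide. The median probe stood at percentile 86.7 of the 41174 probes by its mean normalized log2 signal, with a range from 7.55 to 99.7. 20 of the 42 probes were in the top 10% and 6 in the top 1%, while 10 lay below the median of all probes. Probe brightness also depends on the sequence of the probe, so these ranks describe signal and do not order the mRNA levels of different genes.

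The core histones had the brightest probes, and the linker histones of the clusters, with Hist1h1t left out by rule, ranked lowest by their median. The median percentile was 90.2 over 15 H2A probes, 89.3 over 12 H2B probes, 99.1 over 3 H3 probes and 93.5 over 6 H4 probes, but 53.1 over 6 H1 probes. No H1 probe is a shared probe as defined below, while many core histone probes are, and the types were not compared among unshared probes alone. The testis-specific linker histones H1fnt and Hils1, which lie outside the clusters, stood at percentile 99.9. The brightest H2A probe was that of Hist1h2af (rank 136), the brightest H2B probe that of Hist1h2bp (rank 1585), the brightest H3 probe that of Hist2h3c1 (rank 197) and the brightest H4 probe that of Hist1h4f (rank 1182). Hist1h1c had the brightest H1 probe, at rank 11792. The 10 brightest genes were Hist1h2af, Hist2h2ac, Hist1h2aa, Hist2h3c1, Hist1h3d, Hist1h2ao, Hist2h2aa1, Hist1h4f, Hist1h2bp and Hist1h2bk, of which Hist1h2aa alone is a testis variant.

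**Figure D1:**
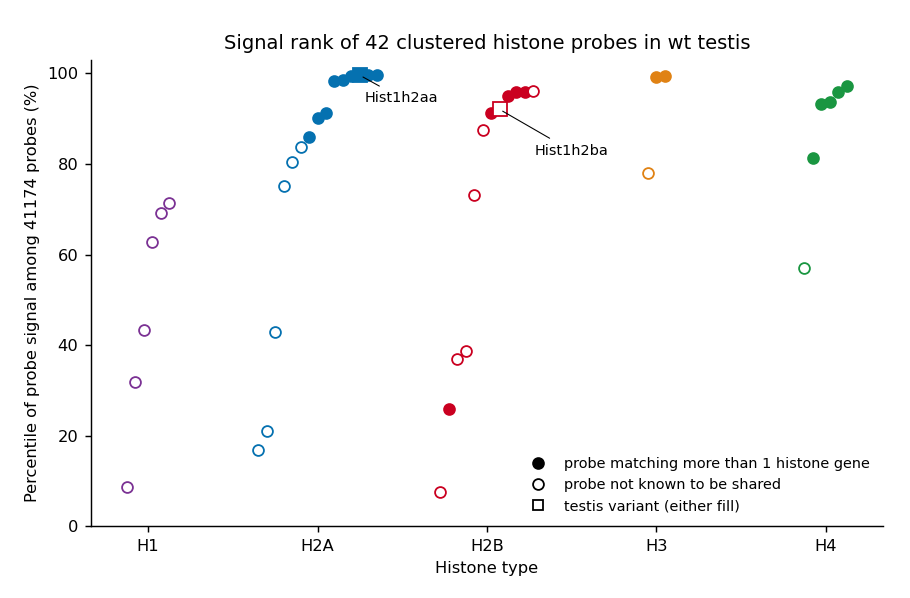
Percentile of the mean wt signal of each of the 42 clustered histone probes among 41174 probes, by histone type. Filled points are probes that share a run of at least 20 bases with the probe of another histone gene or are listed for a further gene, or overlap such a probe of their own gene, squares are the testis variants, and the filled points had a median percentile of 96.0 against 62.8 for the open ones.

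Brightness went with whether a probe is shared. 21 probes either had a RefSeq accession of another gene listed beside their own or held a run of at least 20 bases found in a probe of another member, or overlapped such a probe of their own gene. These stood at a median percentile of 96.0 (26.0 to 99.7), and all 6 probes in the top 1% were among them. The remaining 21 probes stood at a median of 62.8 (7.55 to 96.2). The 8 probes that start 1000 or more bases into the transcript, beyond the length of a usual clustered histone mRNA, had a median percentile of 32.4, against 91.7 for the other 34. 4 of these 8 were too dim in both genotypes to be tested. The 8 had a median of 35.0% G and C, and all but that of Hist1h2bq are probes not known to be shared. The parts of sharing, base composition and position in the rank were not tested apart. The probe for Hist1h3a, an H3 gene, is the only one of the 42 that holds the histone stem-loop, as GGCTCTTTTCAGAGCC, and it was well above background on all 6 arrays at percentile 78.0.

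Genes with 2 probes showed how much a rank depends on the probe. Hist1h2af stood at log2 13.23 in wt testis by its first probe (base 20) and 16.97 by its second (base 328). Hist1h4d, an H4 gene, stood at 11.55 by its probe at base 36 and 14.57 by its probe at base 194, the latter sharing 50 bases with the Hist1h4f probe. Hist1h2bk stood at 13.21 and 14.57, and Hist1h1d at 5.46 by a probe in the first part of the transcript and 2.94 by a probe at base 2302. Both Hist2h2ac probes, which lie over nearly the same bases, gave 16.91 and 16.74.

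The testis variants stood above the middle of the replication-type probes but within their range. Hist1h2aa stood at percentile 99.6 (rank 172) and Hist1h2ba at 92.1 (rank 3272), and over the 6 single arrays these percentiles ran from 99.55 to 99.62 and from 91.9 to 93.0. The median of the 2 was 95.8, against 84.9 for the 40 replication-type probes, a gap of 10.9 percentile points. The probes nearest to them in sequence were at a like rank: the second Hist1h2af probe at 99.7, and the Hist1h2bk probes at 91.2 and 96.0. With 2 testis variant probes and the sequence sharing shown above, this gap is a description of the probes.

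No clustered histone probe passed the adjusted threshold between Prss55-/- and wt testis. The 37 probes of 32 genes that were tested stood well above background on each of the 6 arrays. 0 of the 37 passed a limma adjusted p of 0.05, which 1.21% of the 28617 probes tested passed. 0 also passed the methods' t-test after adjustment, and 0 passed an unadjusted p of 0.05 with a 2-fold difference, which 0.612% of all tested probes did. At an unadjusted limma p of 0.05 there were 8 of 37 (21.6%), against 19.1% of all probes tested, and 7 of these were higher (background 9.82%) and 1 was lower (background 9.3%) in Prss55-/- testis. The count fell to 4 without Prss55-/- replicate 3 and to 5 after normexp background correction. The 95% intervals of the differences ran from -0.61 to 0.88 on the log2 scale over the 37 probes, so that none reached a 2-fold difference in either direction. The 5 probes not tested, those of Hist1h2ac, Hist1h2ae, Hist1h2be and Hist1h2bq and the second of Hist1h1d, missed that level in both genotypes. The 3 Prss55-/- arrays shared 1 slide and the wt arrays lay on 2 others, so that genotype and slide cannot be told apart, and whole-testis RNA does not separate a change in cell number from a change in RNA per cell.

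**Figure D2:**
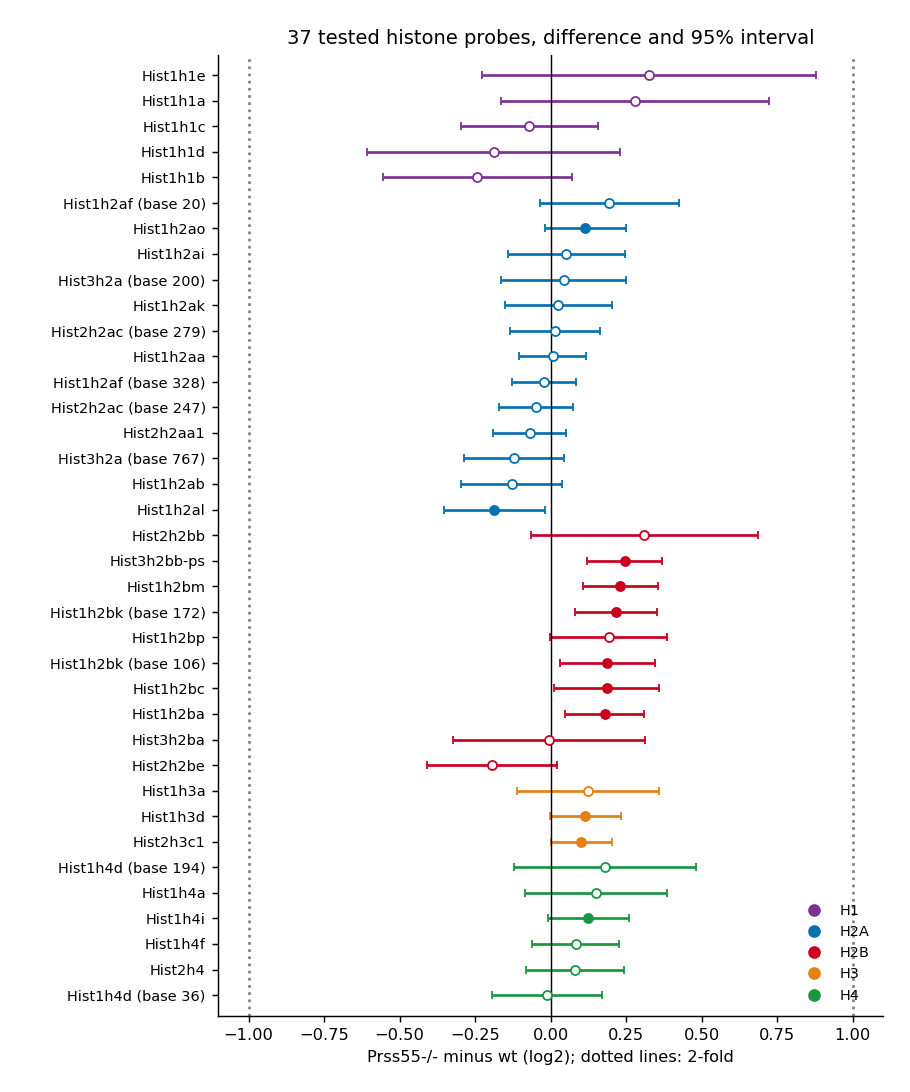
Difference between Prss55-/- and wt testis (log2, Prss55-/- minus wt) of the 37 tested clustered histone probes with the 95% interval of limma, coloured by histone type, 3 mice per genotype. Filled points are probes on which the genotypes did not overlap, and no interval reached the dotted lines at 2-fold.

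The probes leaned slightly above 0. 25 of the 37 differences (67.6%) were above 0, against 50.6% of all tested probes, and the median was 0.08 against 0.00. The lean was mostly in shared probes, 16 above and 4 below 0 with a median of 0.09, while the probes not known to be shared had 9 above and 8 below 0 with a median of 0.04. Without Prss55-/- replicate 1 the median over all 37 was 0.05. The genotypes did not overlap on 11 probes (29.7%, against 26.3% of all tested probes), with Prss55-/- above wt on 10 and below on 1, against 13.4% and 12.9% of all tested probes. Shared probes are not independent of each other, so these counts are not counts of separate genes.

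Hist1h2aa differed by less than the spread between mice. Its normalized log2 signal was 16.91, 16.88 and 16.86 in the 3 Prss55-/- mice and 16.91, 16.84 and 16.87 in the 3 wt mice. All 6 values lay together and the genotypes overlapped. The difference was 0.01 (SE 0.046, 95% interval -0.10 to 0.12, limma adjusted p = 0.95). The second Hist1h2af probe, which shares the run of 44 bases, gave 16.94, 16.94 and 16.97 in Prss55-/- and 16.99, 16.98 and 16.94 in wt testis, a difference of -0.02 (limma adjusted p = 0.822).

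Hist1h2ba was slightly higher in each Prss55-/- mouse than in any wt mouse, without passing the adjusted threshold. It read 13.54, 13.61 and 13.66 in Prss55-/- testis and 13.41, 13.39 and 13.47 in wt testis. The genotypes did not overlap. The difference was 0.18 (SE 0.054, 95% interval 0.05 to 0.31), or 1.13-fold, with a limma adjusted p of 0.162 and a two-sided exact permutation p of 0.1, the smallest that 3 mice against 3 allow. Whether Hist1h2aa and Hist1h2ba differ from each other in this response was not tested.

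**Figure D3:**
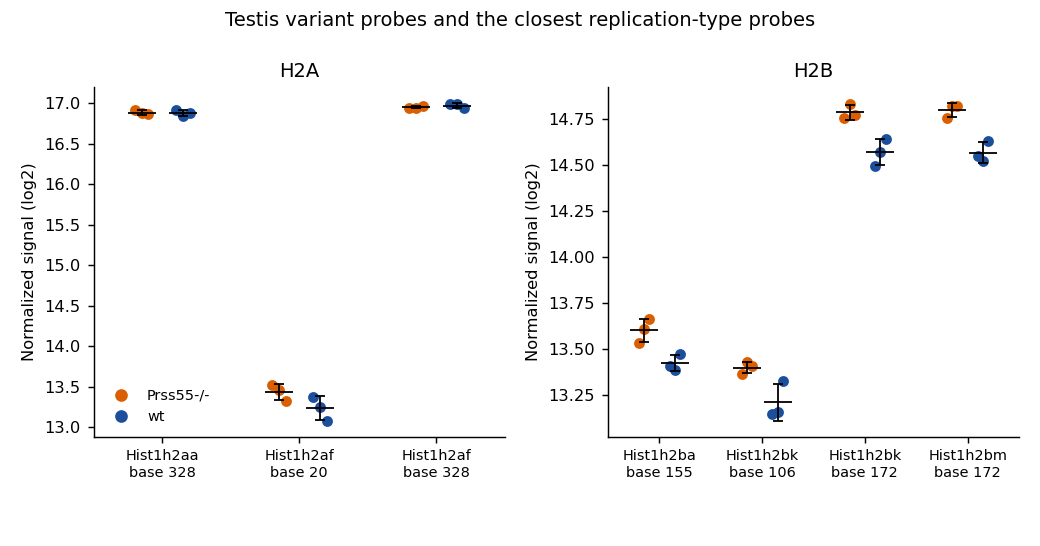
Normalized log2 signal on each of the 6 arrays for the probes of Hist1h2aa and Hist1h2ba and the replication-type probes closest to them, labelled with the start of the probe in its transcript, with the mean and SD of 3 mice per genotype as bars. The genotypes overlap on the H2A probes, while on each of the 4 H2B probes every Prss55-/- value lies above every wt value, as on 13.4% of all tested probes. These 4 probes were picked for their like sequence and are not independent of each other.

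Among the histone types, H2B had the highest median difference, and it was small. 8 of 10 tested H2B probes were above 0, where 50.6% of all tested probes were, with a median difference of 0.19. 6 of the 10, all higher in Prss55-/- testis, reached an unadjusted p of 0.05, which 9.82% of all tested probes did in that direction. 4 of these 6 are shared probes. Another of the 6, the Hist1h2ba probe, is counted as not known to be shared, but was identical to Hist1h2bk at 49 of 54 bases compared. The median was 0.01 over 13 H2A probes, -0.07 over 5 H1 probes, 0.12 over 3 H3 probes and 0.10 over 6 H4 probes. No test compared the types, and the H2B probes were singled out after their values were seen.

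Hist3h2bb-ps, annotated as a pseudogene of H2B, had the lowest adjusted p of all members. It read 14.44, 14.48 and 14.52 in Prss55-/- testis and 14.19, 14.22 and 14.29 in wt testis, a difference of 0.25 (SE 0.051, limma adjusted p = 0.0862). All 3 Prss55-/- mice lay above all 3 wt mice. Hist1h2bm read 14.76, 14.82 and 14.82 against 14.55, 14.52 and 14.63, a difference of 0.23 (SE 0.052, limma adjusted p = 0.0956), and the second Hist1h2bk probe, 2 bases different from it, read 14.75, 14.83 and 14.77 against 14.49, 14.57 and 14.64 (0.22, limma adjusted p = 0.123). Neither overlapped between genotypes. Since Hist3h2bb-ps also matches 54 of 58 aligned bases of the Hist1h2bm probe, these 3 probes may read overlapping sets of H2B mRNAs, which was not tested.

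The first Hist1h2bk probe was likewise higher in every Prss55-/- mouse, at 13.37, 13.43 and 13.41 against 13.15, 13.16 and 13.33 (difference 0.19, limma adjusted p = 0.198). Hist1h2bc, an H2B gene whose probe shares no run of 20 bases with another, read 10.75, 10.65 and 10.67 against 10.57, 10.37 and 10.57 (0.19, limma adjusted p = 0.239), again without overlap. Hist1h2bp, the brightest H2B probe, read 14.69, 14.90 and 14.89 against 14.58, 14.60 and 14.74, where the lowest Prss55-/- mouse fell below the highest wt mouse (0.19, limma adjusted p = 0.266). Hist2h2bb had the largest H2B difference, 0.31 (SE 0.155, limma adjusted p = 0.335), on values of 6.43, 6.57 and 7.01 against 6.40, 6.25 and 6.44. It rested mostly on replicate 3 of Prss55-/-. Hist2h2be went the other way, at 12.32, 12.31 and 12.24 against 12.30, 12.605 and 12.54, a difference of -0.19 (limma adjusted p = 0.3) with overlap through replicate 1 of wt.

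**Figure D4:**
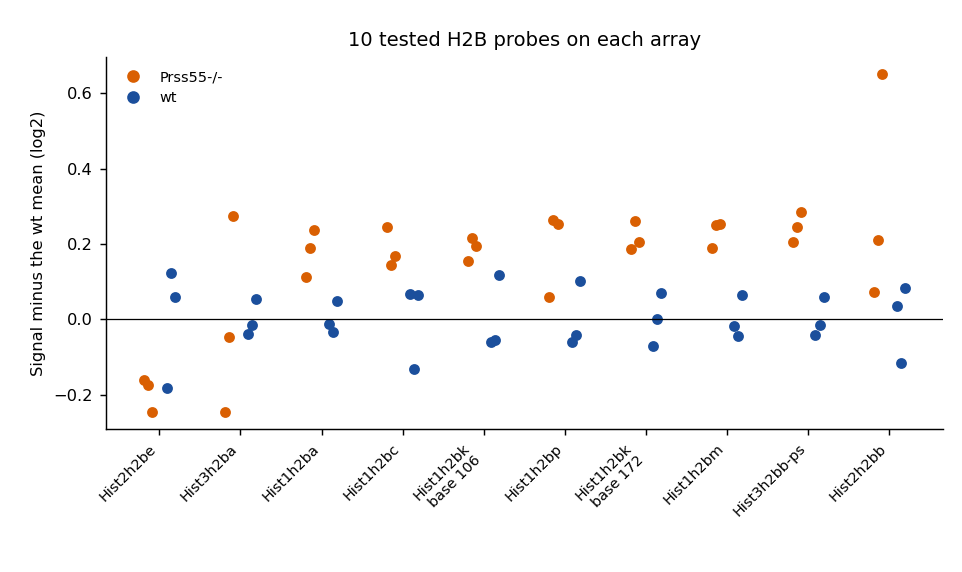
Log2 signal minus the wt mean of the same probe for the 10 tested H2B probes on each of the 6 arrays, ordered by the difference between genotypes. On 6 probes, those of Hist1h2ba, Hist1h2bc, Hist1h2bk (both), Hist1h2bm and Hist3h2bb-ps, the 3 Prss55-/- points lie above all 3 wt points, as on 13.4% of all tested probes, 4 of the 6 are shared probes, and the median difference over the 10 probes was 0.19.

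On single arrays, the median deviation of the 10 H2B probes from their wt means was 0.13, 0.21 and 0.25 on the Prss55-/- arrays and -0.04, -0.04 and 0.06 on the wt arrays. The corresponding medians on the Prss55-/- arrays were 0.02, 0.00 and -0.03 for the 13 H2A probes, 0.10, 0.12 and 0.11 for the 3 H3 probes, 0.15, 0.10 and 0.02 for the 6 H4 probes and 0.13, -0.08 and -0.085 for the 5 H1 probes. On the array of Prss55-/- replicate 1, H2B thus lay close to H4 and H1. 6 H2B probes with a wt signal from log2 13 to 15 had differences of 0.18 to 0.25, while over all 10 tested H2B probes they ran from -0.19 to 0.31. Among all tested probes in these 2 steps of signal, the upper quartile of the difference was 0.07 from 13 to 14 and 0.06 from 14 to 15, and 97.5% of probes lay below 0.28 and 0.25.

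**Figure D5:**
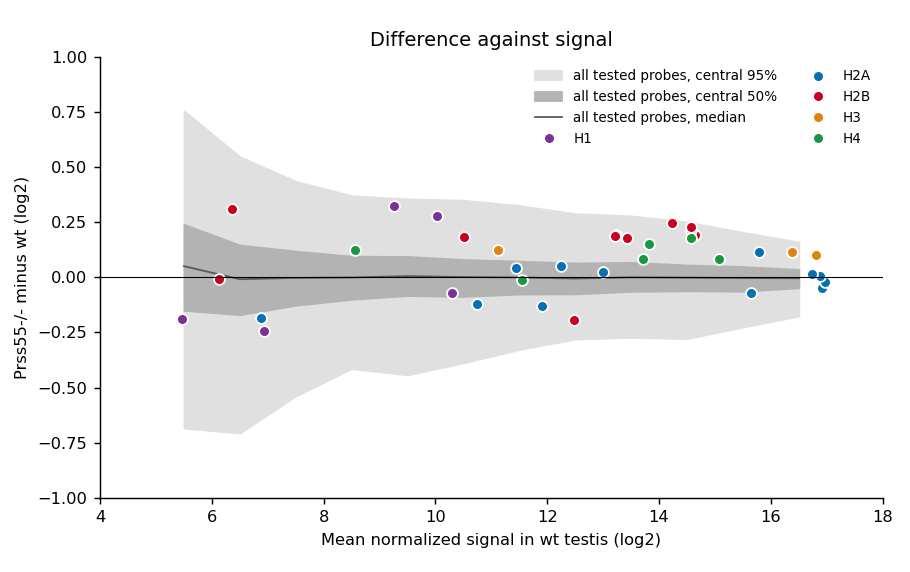
Difference between Prss55-/- and wt testis (log2) of the 37 tested clustered histone probes against their mean wt signal (log2), over the central 50% and 95% and the median of all tested probes of a like signal from log2 5 upward. The H2B points between 13 and 15 lie at 0.18 to 0.25, above the central 50% of all probes and inside the central 95%, and 4 of them are shared probes. Over all 10 tested H2B probes, 8 points lie above 0, and those of Hist2h2be (-0.19) and Hist3h2ba (-0.01) lie below.

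H2A probes showed both signs. Of 13 tested, 7 were above 0 and 6 below. Hist1h2ao was higher in every Prss55-/- mouse, at 15.96, 15.90 and 15.85 against 15.80, 15.73 and 15.84 (0.12, limma adjusted p = 0.323). Hist1h2al, the one member on which every Prss55-/- mouse lay below every wt mouse, read 6.59, 6.77 and 6.71 against 6.79, 6.92 and 6.92 (-0.19, limma adjusted p = 0.223). Its probe starts at base 2941, and its name matched the RefSeq symbol H2af-ps2. Hist2h2ac and Hist2h2aa1, the H2A genes of chromosome 3, differed by -0.05 and -0.07 (limma adjusted p = 0.638 and 0.493) with overlap.

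The 3 H3 probes were all above 0. Hist2h3c1 read 16.91, 16.91 and 16.92 in Prss55-/- and 16.82, 16.82 and 16.79 in wt testis, a difference of 0.10 (SE 0.041, limma adjusted p = 0.256). Hist1h3d read 16.45, 16.55 and 16.50 against 16.40, 16.40 and 16.35 (0.12, limma adjusted p = 0.271). Neither overlapped between genotypes. Of the 6 H4 probes 5 were above 0, from 0.08 to 0.18. Among these, Hist1h4i alone did not overlap, at 8.69, 8.71 and 8.66 against 8.65, 8.54 and 8.51 (0.12, limma adjusted p = 0.287), while Hist1h4f differed by 0.08 (limma adjusted p = 0.489).

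Among the tested probes, linker histones held the largest single difference and the widest spread between mice, and the difference rested on single mice. Hist1h1e read 9.94, 9.18 and 9.62 in Prss55-/- testis and 9.23, 8.98 and 9.55 in wt testis, a difference of 0.33 with an SE of 0.227 (limma adjusted p = 0.478). Hist1h1a read 10.59, 10.07 and 10.27 against 10.13, 9.72 and 10.25 (0.28, SE 0.182, limma adjusted p = 0.45). Without Prss55-/- replicate 1, Hist1h1e differed by 0.15 and Hist1h1a by 0.14, and without wt replicate 2 by 0.19 and 0.12. Without Prss55-/- replicate 2, Hist1h1e differed by 0.53. Hist2h2bb was larger than Hist1h1e under 75th percentile scaling (0.39 against 0.33) and in 3 of the 6 fits that left out 1 array. Hist1h1b differed by -0.24 (limma adjusted p = 0.36), at 6.57, 6.91 and 6.57 against 7.07, 6.73 and 6.97, and Hist1h1c, the brightest H1 probe, by -0.07 (limma adjusted p = 0.717). All 5 tested H1 probes overlapped between genotypes.

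Where a gene had 2 tested probes, the pair did not always take the same sign. Hist1h2af differed by 0.19 and -0.02, Hist1h4d by -0.01 and 0.18, Hist3h2a by 0.04 and -0.12 and Hist2h2ac by -0.05 and 0.02, and in none of these pairs did a probe pass an unadjusted p of 0.05. The 2 Hist1h2bk probes differed by 0.19 and 0.22.

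No listed gene for histone mRNA or histone handling passed the adjusted threshold, which 1.21% of all tested probes passed. The 1 gene that passed was from the list of DNA replication and S phase. The unadjusted counts below stand against 19.1%. Of 15 genes for histone mRNA transcription and 3′ end processing, 0 passed the adjusted limma threshold and 0 an unadjusted p of 0.05. Slbp, which encodes the protein that binds the histone stem-loop, differed by 0.04 (limma adjusted p = 0.725), and the U7 snRNP component Lsm10 by 0.03 (limma adjusted p = 0.798). Of 13 histone chaperone genes tested, 0 passed the adjusted threshold and 2 an unadjusted p of 0.05. Nasp, a chaperone of H1 and H3-H4, differed by -0.11 (limma adjusted p = 0.272), and Supt16, a subunit of the FACT complex, by 1.27 (limma adjusted p = 0.062). Supt16 was past an unadjusted limma p of 0.05 with a 2-fold difference, as 0.612% of all tested probes were. Of 20 genes of DNA replication and S phase, 1 passed, higher in Prss55-/- testis, and 6 reached an unadjusted p of 0.05. Of these 6, Rrm1 was lower, and Mcm2, Mcm3, Mcm5, Rrm2 and Cdt1 were higher, a direction that 9.82% of all tested probes took at this p. The gene that passed was Rrm2, encoding a ribonucleotide reductase subunit, at 9.51 ± 0.029 (SD, n = 3) against 8.79 ± 0.11 (SD, n = 3), a difference of 0.71 (limma adjusted p = 0.0106). The median over the 20 was 0.05, and Pcna, the replication clamp, differed by 0.07 (limma adjusted p = 0.697). Of 14 histone genes outside the clusters, 0 passed and 5 reached an unadjusted p of 0.05. Cenpa and H3f3b were higher among these 5 in Prss55-/- testis, as 9.82% of all tested probes were at this p. H1fx, H1fnt and H2afb1 were lower, as 9.3% were. The testis-specific linker histones H1fnt and Hils1 stood at percentile 99.9, and differed by -0.20 and -0.06 (limma adjusted p = 0.229 and 0.562).

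Prss55 itself read 15.08, 14.95 and 14.93 on the Prss55-/- arrays and 15.87, 15.77 and 16.01 on the wt arrays, by a single probe. The difference was -0.90 (limma adjusted p = 0.01), so that much of the signal remained. The paper reports Prss55 mRNA as absent in Prss55-/- testis by RT-PCR, and the protein as absent by Western blot. Where the probe lies relative to the disrupted part of the gene was not tested. The arrays had 43379 non-control spots, 69.5% to 72.9% of them well above background and 0 saturated. Germ cell markers of testis were well above background on all 6 arrays. The 8 spermatid markers stood at percentile 95.1 (Odf1) or above, the 8 spermatocyte markers from 66.2 (Dmc1) to 91.0 (Piwil1) and the 6 spermatogonial markers from 46.9 (Dmrt1) to 94.6 (Uchl1). Of the marker lists for spermatogonia (6 tested), spermatocytes (8), spermatids (8), Sertoli cells (6), macrophages (4), peritubular and vascular cells (3), blood (3) and epididymis (2), 0 genes passed the adjusted threshold, with 1, 2, 2, 2, 2, 1, 0 and 0 at an unadjusted p of 0.05, which 19.1% of all tested probes reached. The log2 of the summed level of the spermatocyte markers, in the cells where TH2A and TH2B are made, was 15.33 to 15.41 on the Prss55-/- arrays and 15.25 to 15.36 on the wt arrays. The 5 Leydig cell markers tested were lower in Prss55-/- testis with a median difference of -0.62, with 0 past the adjusted threshold and 2 at an unadjusted p of 0.05, their summed level running from 14.96 to 15.65 against 15.64 to 15.84. The part of cell makeup in the histone values was not tested.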

How the data were processed

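RNA from testis, 3 mice per genotype, was hybridized to Agilent arrays with 1 dye, each mouse to its own array. Scanner output was deposited by the authors (Agilent Feature Extraction 10.7, per the submitters' processing notes) as a linear intensity, corrected for background within each array and with no scaling across arrays. A second deposited table of log2 values, quantile-normalized already, served as an alternative. Control spots and outlier spots were left out, signals below 1 were set to 1, log2 signals were quantile-normalized as in the study's methods, and spots of a probe were averaged. A probe entered the test where each of the 3 arrays of either genotype called it well above background. The test was limma 3.58.1 in R 4.3.3 (two-sided, Benjamini-Hochberg over 28617 probes). The fit was tested on simulated data. The precision of each value is limited by the number of arrays. Percentiles rank the mean wt signal. Positions of probes are mm9, from the files, and promoter windows are those of RefSeq on GRCm38.p6, matched by gene symbol.

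Genes were named by rule: the testis variants, the brightest gene of each histone type, every member past the adjusted threshold (0), the 10 genes with the largest difference on any tested probe, the 10 brightest, and genes whose probes differ in sign with one past an unadjusted p of 0.05. This gave 19 genes, of which Hist1h2af would not have been among the largest differences by its brighter probe. The brightest probe stood for a gene elsewhere. Others, such as Hist1h2al, Hist1h2bc and Hist1h4i, were named after their values were seen. The members, lists and marker genes were chosen with earlier results of these data known. Alternatives were 75th percentile scaling, normexp background (offset 50), the deposited matrix, other filters, the methods' t-test, the slide as a random block, a replicate block and each array left out. Summaries and plots were made in Python 3.11.15 using pandas 2.3.3 and matplotlib 3.10.9.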

Additional observations from a re-analysis of the deposited data

How the results depend on the processing

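No clustered histone probe passed the adjusted threshold under any of the 14 alternatives to the main setting, and none passed an unadjusted p of 0.05 with a 2-fold difference. The lowest adjusted p of a member ran from 0.0611 (methods' t-test) to 0.29 (without Prss55-/- replicate 3). The count of members at an unadjusted p of 0.05 ran from 4 (without Prss55-/- replicate 3) to 9, against 8, and was 5 after normexp background. The median difference of the tested members, 0.0828, ran from 0.0539 to 0.115 with 1 array left out (lowest without Prss55-/- replicate 1). It was 0.0926 with 1 probe a gene and 0.0432 over probes not known to be shared, both chosen after seeing the data. The H2B median, 0.19, ran from 0.17 to 0.25 over the settings, with 8 or 9 of 10 probes above 0, or 10 of 12 with no filter on dim probes. Of 266 values of the 19 named genes under these alternatives, 263 kept their sign. Those that turned were Hist1h2af at 0.0046 under 75th percentile scaling (from -0.02) and Hist1h2aa at -0.0082 without Prss55-/- replicate 1 and -0.0098 without wt replicate 2. Over the arrays left out, Hist1h2aa ran from -0.0098 to 0.0251 and Hist1h2ba from 0.15 to 0.21. The gap in percentile between testis variant and replication-type probes, 10.9, was 11.6 on the Prss55-/- arrays and 8.27 when only probes well above background on all wt arrays were ranked, and 10.66 to 11.13 with 1 wt array left out. The cause of these shifts was not tested.

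A figure legend of the paper speaks of 3 pairs of mice, and the sample labels do not say which mice belong together. Same-number arrays correlated at -0.054, -0.022 and -0.112 in their deviations, against -0.058 to 0.11 for arrays of unlike number. With 3 arrays per genotype these values cannot show whether the mice were paired. With a replicate block, 0 members passed and the array gave 13 probes past the adjusted threshold against 345, and the slide as a random block gave 287. Over the whole array, leaving out 1 array gave from 38 (without Prss55-/- replicate 3) to 857 probes (without Prss55-/- replicate 1), the fit with no filter on dim probes 140 and the methods' t-test 87. The number of mice limits the precision of every difference.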
